A study of Mus musculus with 6 samples.

Results

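The receptors for lysophosphatidic acid (LPA) and sphingosine 1-phosphate (S1P) were followed in mammary tumours and mammary glands of mice. The 10 genes Lpar1, Lpar2, Lpar3, Lpar4, Lpar6 and S1pr1 to S1pr5 were taken by symbol from the 24421 genes of the deposited expression table, and each had a row. The tumours (n = 3) came from tumour-bearing females of the strain labelled FVB/NJ; MMTV-Tg(LINK-A), and the glands (n = 3) from females of the strain labelled FVB/NJ; Tg(LINK-A), all aged 5 months. Both groups thus carry the long non-coding RNA LINK-A, known from human breast cancer, as a transgene. MMTV is the mouse mammary tumour virus, whose promoter drives expression in mammary epithelium, and it is named for the tumours only, so genotype and tissue cannot be told apart here. Separate animals are not stated for the libraries of a group, and the p-values cover only the spread among these 6 samples, which may be technical.

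LPA and S1P are small lipids with a phosphate head that act outside cells through G protein coupled receptors. LPA is made outside cells, chiefly by the secreted enzyme autotaxin, and S1P is made inside cells by sphingosine kinases and then exported. LPA receptors 1 to 3 and the S1P receptors form one related family, and Lpar4 and Lpar6 belong to another that resembles nucleotide receptors. S1P holds endothelial junctions together and draws lymphocytes out of lymphoid organs into blood and lymph, in both cases through S1pr1.

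Per length of transcript, in FPKM (fragments relative to transcript length and library size, a unit inferred from the values because the table names none), the receptors fell into 2 directions. S1pr1, S1pr3, S1pr4, Lpar1 and Lpar6 were lower in the tumours, and S1pr2 and Lpar2 were higher. The summed S1P receptor level was 23.9 ± 1.77 FPKM in the tumours and 55.2 ± 8.19 FPKM in the glands (mean ± SD, n = 3 each, as for every mean given here). The summed level of the 5 LPA receptors was 14.0 ± 0.738 FPKM in the tumours and 32.4 ± 2.23 FPKM in the glands. Of the 10 receptors 7 averaged 1 FPKM or more across the 6 libraries and were tested among 13364 such genes, with limma on log2(FPKM + 1). Of these, 5 were lower and 2 higher in the tumours at an adjusted p of 0.05, in a comparison that called 45.1% of all tested genes, 23.1% lower and 21.9% higher. Lpar2 reached that mean only through the tumours and S1pr4 only through the glands, so the count of 7 says nothing beyond the single genes. The groups did not overlap for any of the 10 receptors, which held for 58.2% of all tested genes. The median log2 fold change of the 7 was -1.46, which is the value of S1pr4, beside 0.008 for all tested genes. The 7 ran from -2.35 to 0.82, and their median, like their count, says nothing beyond the single genes. With glands 1 and 3 both left out, which leaves a single gland, S1pr1 alone passed, and 9 pathway genes passed in place of 35.

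**Figure D1:**
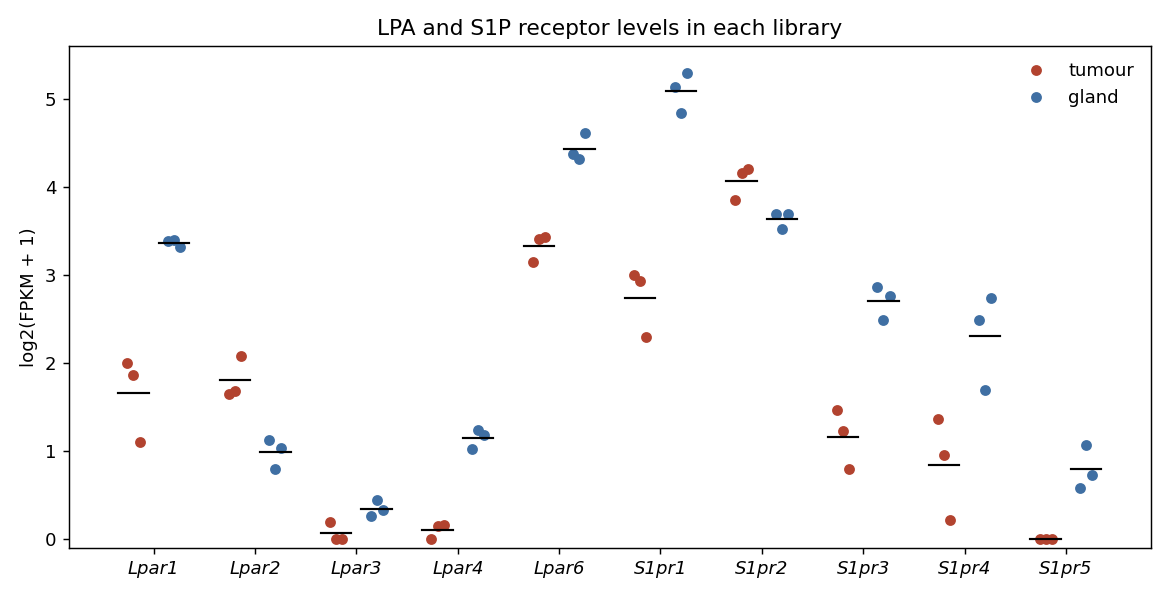
Level of each receptor as log2(FPKM + 1), in 3 tumour libraries (red, left) and 3 gland libraries (blue, right), with points in the order of the library numbers and bars at the means. S1pr2 and Lpar2 lie higher in the tumours, the other 8 receptors lie lower, and S1pr5 is listed at 0 in all 3 tumours.

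The deposited values summed to between 486080 and 582996 FPKM per tumour library and between 495985 and 510957 FPKM per gland library. Total reads were not given, so depth is known only in relative terms. Judged by the spacing of the lowest values, tumours 2 and 3 and glands 1 and 2 had between 1.44 and 1.58 times the depth of tumour 1. The same estimate put gland 3 at 0.631 times, on the fewest pairs of values (20 of 304 on the step, against 29 of 284 to 53 of 537 for the others). Yet gland 3 listed the most genes above 0 (16643, against 15000 in tumour 1 and 16218 and 16276 in glands 1 and 2). Its relative depth is therefore uncertain. The tissue labels were set against markers. The 6 luminal epithelium markers were all higher in the tumours, with sums of 2678 to 2988 FPKM there and 993 to 1050.2 FPKM in the glands, and all 6 adipocyte markers were lower, at 33.3 to 225 FPKM in the tumours and 5907 to 7102 FPKM in the glands. Glands 1 and 3 held more lymphocyte RNA than gland 2 (over the 3 glands, the T cell marker sum ran from 47.7 to 175 FPKM and that of B cells from 21.2 to 141 FPKM), and gland 2 held the most skeletal muscle RNA, with a marker sum of 9704 FPKM against 7.68 FPKM in the lowest gland. Tumour 3 had the lowest tumour sums of the endothelial, fibroblast, adipocyte and T cell markers. Marker counts given below share a limit, since genes that reached the filter through the glands alone could hardly be called other than lower. In bulk tissue, fewer cells of a type and less RNA per cell cannot be told apart.

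The sequences before the start sites of 4 receptors are shown because they set a receptor that was higher beside one that was lower for each lipid, S1pr2 beside S1pr3 for S1P and Lpar2 beside Lpar6 for LPA. RefSeq entries (GRCm38.p6) were found for 9 of the 10 receptors, without S1pr1. Each line gives the 250 bases before the RefSeq start, read 5′ to 3′ on the strand of the gene.
S1pr2 (chr9:20976794-20977043, minus strand): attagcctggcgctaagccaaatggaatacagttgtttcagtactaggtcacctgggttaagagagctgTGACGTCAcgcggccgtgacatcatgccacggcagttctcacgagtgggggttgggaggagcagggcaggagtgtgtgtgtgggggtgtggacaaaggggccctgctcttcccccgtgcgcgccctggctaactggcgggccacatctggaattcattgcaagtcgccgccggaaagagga
S1pr3 (chr13:51408368-51408617, plus strand): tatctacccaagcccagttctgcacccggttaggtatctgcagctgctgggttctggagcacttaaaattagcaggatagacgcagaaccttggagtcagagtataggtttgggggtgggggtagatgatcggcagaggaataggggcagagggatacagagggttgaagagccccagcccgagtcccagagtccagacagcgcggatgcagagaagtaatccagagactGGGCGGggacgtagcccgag
Lpar2 (chr8:69822315-69822564, plus strand): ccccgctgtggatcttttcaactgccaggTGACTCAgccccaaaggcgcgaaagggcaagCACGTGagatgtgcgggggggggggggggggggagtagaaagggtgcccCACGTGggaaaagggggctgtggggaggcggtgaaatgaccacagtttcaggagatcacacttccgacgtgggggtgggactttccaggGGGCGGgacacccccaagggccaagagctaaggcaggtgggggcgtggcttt
Lpar6 (chr14:73237641-73237890, plus strand): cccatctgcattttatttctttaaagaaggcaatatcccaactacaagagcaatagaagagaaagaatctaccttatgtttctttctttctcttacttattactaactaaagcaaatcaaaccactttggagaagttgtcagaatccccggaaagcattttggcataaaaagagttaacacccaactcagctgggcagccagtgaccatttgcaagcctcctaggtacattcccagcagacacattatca
Capitals mark matches, on either strand, to 6 searched motifs, which are the GC box GGGCGG, the E-box motif CACGTG, the cAMP response element with the letters TGACGTCA, the box named CCAAT, the TATA box with the letters TATAAA, and the AP-1 site with TGANTCA, none of which overlap another here. S1pr2 held 1 cAMP response element, which 1.55% of 32851 promoter windows of this length hold. Lpar2 held an E-box at 2 places (6.02% of windows hold at least 1), an AP-1 site (6.75%) and a GC box (32.7%). S1pr3 held 1 GC box, 15 to 20 bases before the start, and Lpar6 held none of the 6. The share of G and C was 59.2% for S1pr2 and 56.4% for S1pr3, and 64.4% for Lpar2 and 39.2% for Lpar6, with a median of 52.4% over all windows. A match describes letters and is not a measured site.

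S1pr1, the receptor of endothelium and lymphocytes that couples to Gi proteins, was the most abundant receptor in the glands and showed the largest log2 fold change of the 7. It lies on chromosome 3 (115710433 to 115715072, GENCODE M21 on GRCm38, the build also called mm10, as for all gene positions here). Its level was 7.00, 6.61 and 3.89 FPKM in tumours 1, 2 and 3 and 34.1, 27.7 and 38.0 FPKM in glands 1, 2 and 3. The highest tumour stood far below the lowest gland, and tumour 3 was the lowest library. The log2 fold change was -2.35 (SE 0.22, adjusted p = 2.9e-04), and it passed in all 16 alternatives tried, at -2.52 to -2.10 (adjusted p at most 0.0418).

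All 10 endothelial markers fell as well, of which 1 reached the filter through the glands only, with a median log2 fold change of -2.36 and a range from -3.98 to -2.01. Their summed level was 31.0 to 67.3 FPKM in the tumours and 294 to 339 FPKM in the glands, and none was listed at 0 in all tumours. Pecam1, an adhesion molecule of endothelial junctions, stood at 11.8 ± 4.15 FPKM in the tumours and 59.2 ± 7.86 FPKM in the glands, and Cldn5, a claudin of endothelial tight junctions, at 3.27 ± 2.26 FPKM in the tumours and 58.1 ± 8.97 FPKM in the glands. Relative to the mean log2(FPKM + 1) of the endothelial list, S1pr1 stood at 0.474, 0.271 and 0.505 in tumours 1, 2 and 3 and at 0.334, 0.164 and 0.469 in glands 1, 2 and 3. The groups overlapped on this scale. The difference was 0.095, with an exact permutation p of 0.5 (2-sided, smallest possible 0.1, adjusted p = 0.625 over the 5 such tests made). A difference relative to endothelial genes was thus not detected with these 6 libraries. The T cell markers had a median log2 fold change of -2.26 (5 of 7 lower), and the B cell markers -1.81 (0 of 6 passed). The parts of endothelium and of lymphocytes in the fall of S1pr1 were not tested.

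S1pr3, a receptor of endothelium and vascular smooth muscle (chromosome 13, 51408639 to 51422797), stood at 1.76, 1.33 and 0.730 FPKM in tumours 1, 2 and 3 and at 6.28, 4.62 and 5.79 FPKM in glands 1, 2 and 3. Every tumour was below every gland, and the order of the tumours was that of S1pr1. S1pr3 was lower by a log2 fold change of -1.55 (adjusted p = 0.00148, SE 0.22). Its exons overlap those of Gm32834 on the opposite strand, which has no row in the table, and whether the libraries kept strand is not stated. Of 8 pericyte and smooth muscle markers 7 fell and 1 did not pass, with sums of 58.5 to 109 FPKM in the tumours and 657 to 831 FPKM in the glands and no marker listed at 0 in all tumours. Their part in the fall of S1pr3 was not tested.

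S1pr2 was the only tested S1P receptor with a higher level in the tumours. This receptor couples to Gna12 and Gna13, and it restrains migration in many cells where S1pr1 promotes it. It lies on chromosome 9 (20962361 to 20976781). Its level was 13.4, 16.8 and 17.4 FPKM in tumours 1, 2 and 3 and 11.9, 10.5 and 11.9 FPKM in glands 1, 2 and 3. The lowest tumour stood only a little above the highest gland. The log2 fold change was 0.44 (SE 0.13, adjusted p = 0.0333), and this call is not firm. It was lost in 8 of 16 alternatives, among them a common sum per library (0.37, adjusted p = 0.143) and the fits without gland 1 (adjusted p = 0.0778), gland 2 (0.1), gland 3 (0.0839), tumour 2 (0.109) or tumour 3 (0.0621), with a positive log2 fold change of 0.37 to 0.55 throughout.

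The make-up of the S1P receptors did not rest on that call or on the scaling of the libraries, since it is a ratio within each library. S1pr2 made up 56.5%, 65.5% and 78.4% of the summed S1P receptor FPKM in tumours 1, 2 and 3 and 20.8%, 22.8% and 19.1% in glands 1, 2 and 3. S1pr1 made up 24.2 ± 6.08% in the tumours and 60.2 ± 0.979% in the glands. The ratio of S1pr2 to S1pr1 was 1.92, 2.55 and 4.47 in tumours 1, 2 and 3 and 0.349, 0.380 and 0.312 in glands 1, 2 and 3. S1pr2 was thus the leading S1P receptor in every tumour and S1pr1 in every gland. The share of S1pr2 differed by 45.9 percentage points (exact permutation p = 0.1, the smallest that 3 against 3 allows; adjusted p = 0.25). The comparison of this share was chosen after the values were seen.

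**Figure D2:**
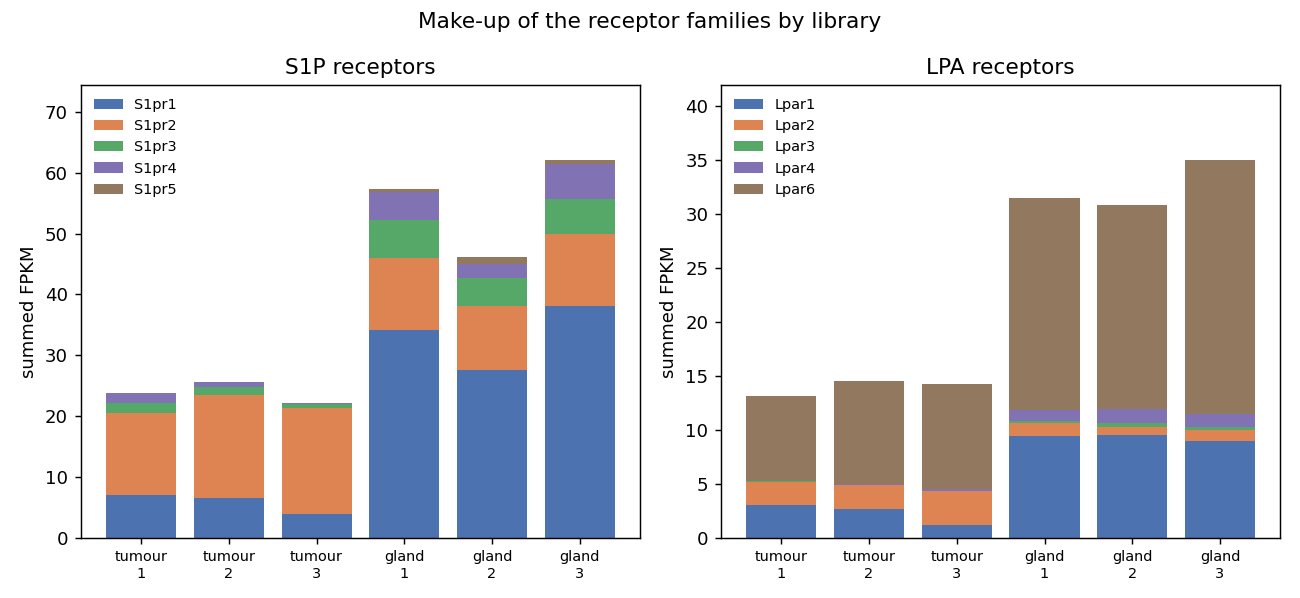
Summed FPKM of the S1P receptors (left) and of the 5 LPA receptors (right) in each library, stacked by gene, with tumours left of glands. S1pr2 is the widest S1P band in all 3 tumours and S1pr1 in all 3 glands, and Lpar6 is the widest LPA band in all 6 libraries.

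S1pr4 and S1pr5 are receptors of white blood cells, S1pr5 chiefly of natural killer (NK) cells. S1pr4 (chromosome 10, 81497747 to 81500132) stood at 1.58, 0.931 and 0.163 FPKM in tumours 1, 2 and 3 and at 4.59, 2.23 and 5.67 FPKM in glands 1, 2 and 3. Gland 2, with the least lymphocyte RNA, was the lowest gland. The log2 fold change was -1.46 (SE 0.38, adjusted p = 0.019), and the call was lost without gland 1 (adjusted p = 0.0596), without gland 3 (0.0711), without both (-0.85, adjusted p = 0.318) and with quantile-normalized values (-0.93, adjusted p = 0.0644), while a pseudocount of 0.1 gave -2.37. Of 7 T cell markers 5 fell and 2 did not pass, with sums of 3.36 to 35.6 FPKM in the tumours and 47.7 to 175 FPKM in the glands, and 0 of 6 B cell markers passed in limma (2 had an unadjusted p under 0.05), with sums of 1.13 to 41.5 FPKM in the tumours and 21.2 to 141 FPKM in the glands. Ptprc, the CD45 antigen of all white blood cells, stood at 7.13 ± 2.54 FPKM in the tumours and 25.8 ± 9.52 FPKM in the glands. Relative to Ptprc on the log2(FPKM + 1) scale, S1pr4 stood at -1.68, -2.45 and -2.25 in the tumours and at -2.66, -2.36 and -2.10 in the glands. These groups overlapped (difference 0.24, exact permutation p = 0.5), and the sign turned at a pseudocount of 0.1 (-0.54).

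S1pr5 (chromosome 9, 21242912 to 21248443) was listed at 0 in all 3 tumours and at 0.495, 1.10 and 0.657 FPKM in glands 1, 2 and 3. Its mean was below 1 FPKM, so that it was not tested there, and in the fit with no filter on low values, which called 37.2% of 18174 genes and 20.9% lower, its adjusted p was 0.00488. In that fit all 10 receptors passed, and the groups did not overlap for 50.7% of its genes. The 4 tested NK cell markers were called lower, but 3 of them reached the filter only through the glands. The 6 NK markers summed to 1.54 to 3.58 FPKM in the tumours and 13.2 to 24.4 FPKM in the glands. Gland 2 had the highest S1pr5 of the glands but the lowest NK sum. The part of NK cells in the level of S1pr5 was not tested. Exons of S1pr5 overlap those of Gm48303, a gene on the opposite strand without deposited values, and whether the libraries kept strand is not stated.

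**Figure D3:**
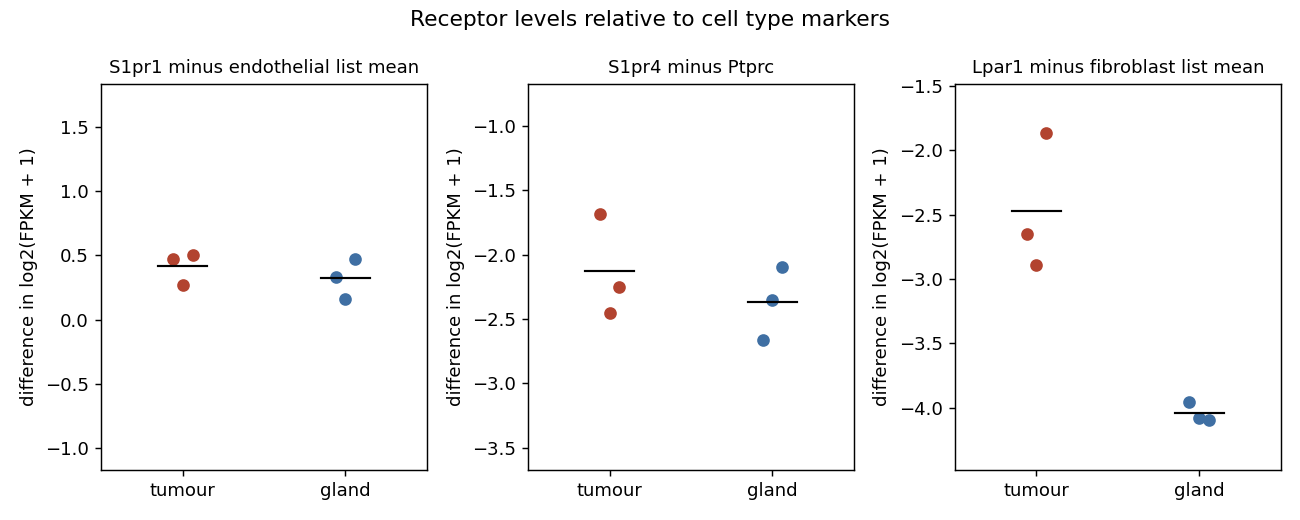
Level of S1pr1 relative to the endothelial list mean, of S1pr4 relative to Ptprc and of Lpar1 relative to the fibroblast list mean, each as a difference in log2(FPKM + 1) per library, with tumours (red) left of glands (blue), bars at the means and axes of equal span. The groups overlap for S1pr1 and S1pr4 and are apart for Lpar1, by 1.57.

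Among the LPA receptors, Lpar6 was the most abundant in every library. It is a receptor that couples to Gna13 and, in humans, is needed for hair growth together with the LPA-producing enzyme LIPH. Lpar6 stood at 7.87, 9.59 and 9.79 FPKM in tumours 1, 2 and 3 and at 19.7, 18.9 and 23.5 FPKM in glands 1, 2 and 3. The tumours and the glands formed separate groups with little spread within each. The log2 fold change was -1.10 (SE 0.14, adjusted p = 8.7e-04). The share of Lpar6 in the summed LPA receptor FPKM was 64.8 ± 4.49% in the tumours and 63.6 ± 3.11% in the glands (difference 1.24 percentage points, exact permutation p = 0.8), and the difference turned to -0.67 without tumour 3. This comparison too was chosen after the values were seen. Lpar6 (chromosome 14, 73237895 to 73243294) lies inside Rb1, on the opposite strand, with exons that overlap some of Rb1. Rb1, the retinoblastoma tumour suppressor gene, stood at 19.6 ± 1.37 FPKM in the tumours and 17.2 ± 1.14 FPKM in the glands (adjusted p = 0.21). How reads were split between Lpar6 and Rb1 is uncertain if strand was not kept.

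Lpar1, the receptor of mesenchymal cells and peripheral glia (chromosome 4, 58435255 to 58553898), stood at 3.01, 2.64 and 1.15 FPKM in tumours 1, 2 and 3 and at 9.44, 9.50 and 8.94 FPKM in glands 1, 2 and 3. The glands lay within a narrow band, and all tumours lay far below it. The log2 fold change came to -1.71 (SE 0.24, adjusted p = 0.00161). All 6 fibroblast markers fell, with a median log2 fold change of -3.69 and sums of 90.6 to 294 FPKM in the tumours and 1331 to 1484 FPKM in the glands. Relative to the fibroblast list mean, Lpar1 stood at -2.65, -2.89 and -1.87 in tumours 1, 2 and 3 and at -3.96, -4.08 and -4.09 in glands 1, 2 and 3. Every tumour was above every gland on this scale, with a difference of 1.57 (exact permutation p = 0.1, the smallest possible; adjusted p = 0.25). Of the 6 Schwann cell markers 4 fell, among them the myelin gene Mbp (-1.46), and 2 rose, among them Sox10 (1.41), a transcription factor also made in mammary epithelium.

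Lpar2, a receptor that LPA-responsive epithelial cells and carcinomas express, was the other member to rise (chromosome 8, 69822429 to 69831102). It stood at 2.13, 2.21 and 3.21 FPKM in tumours 1, 2 and 3 and at 1.18, 0.731 and 1.05 FPKM in glands 1, 2 and 3. Tumour 3, the lowest tumour for Lpar1 and S1pr1, was the highest for Lpar2. Its log2 fold change was 0.82 (SE 0.20, adjusted p = 0.014), or 1.27 with a pseudocount of 0.1 and 1.37 with quantile-normalized values. The ratio of Lpar1 to Lpar2 was 1.41, 1.19 and 0.358 in the tumours and 8.03, 13.0 and 8.51 in the glands. The 6 luminal epithelium markers, which rose by 0.54 to 2.73 on the log2 scale, moved with Lpar2 and S1pr2, and their part in either rise was not tested.

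Lpar3 and Lpar4 were low everywhere. Lpar4, which couples to several G proteins (chromosome X, 106920625 to 106933900), stood at 0, 0.106 and 0.111 FPKM in tumours 1, 2 and 3 and at 1.03, 1.36 and 1.27 FPKM in glands 1, 2 and 3. Every tumour was below every gland. In the fit with no filter its log2 fold change was -1.05 (SE 0.10, adjusted p = 6.3e-04). Lpar3, known for its role in embryo implantation in the mouse (chromosome 3, 146220963 to 146286186), stood at 0.140, 0 and 0 FPKM in the tumours and at 0.197, 0.357 and 0.252 FPKM in the glands, with an adjusted p of 0.0448 in that fit.

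Ordered by mean FPKM, the tumours ran S1pr2, Lpar6, S1pr1, Lpar2, Lpar1, S1pr3, S1pr4, Lpar4, Lpar3 and S1pr5, and the glands ran S1pr1, Lpar6, S1pr2, Lpar1, S1pr3, S1pr4, Lpar4, Lpar2, S1pr5 and Lpar3. In the tumours the ranges of neighbours overlapped from Lpar2 to S1pr4 and from Lpar4 to S1pr5, and in the glands for S1pr3 with S1pr4 and for Lpar4, Lpar2 and S1pr5 in turn. The genes most like each tested receptor over the 6 libraries, by Pearson's r on log2(FPKM + 1), were Ubd, C1qtnf9 and Bmp6 for S1pr1, and for S1pr2 they included Sbno2 and Bcl2l11. They were H2-DMa, Acp5 and Adh1 for S1pr3, and Batf, Gimap9 and Ctla4 for S1pr4. For the LPA receptors they were Serpinf1, Hsd11b1 and C1s1 for Lpar1, Atad5, Frmd8 and Asprv1 for Lpar2, and Efna2, Gprasp1 and Kdm7a for Lpar6. All these r lay between 0.996 and 0.999, but between 359 and 1589 tested genes exceeded 0.95 for each receptor, since all share the difference between the tissues.

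Genes on the routes to LPA and its relatives moved in both directions. This list also holds enzymes that make phosphatidic acid or lysophosphatidylserine. Of its 6 tested genes 3 were lower, 1 was higher and 2 did not pass. Among all tested genes 23.1% were lower and 21.9% higher. Liph, the 1 that was higher, reached the filter only through the tumours and could hardly be called other than higher. Enpp2, which encodes autotaxin, stood at 5.77, 5.03 and 0 FPKM in tumours 1, 2 and 3 and at 37.1, 21.2 and 40.6 FPKM in glands 1, 2 and 3 (log2 fold change -3.25, SE 0.72, adjusted p = 0.0103). It was listed at 0 in tumour 3, so that its fold change depends on the pseudocount, and leaving out glands 1 and 3 together ended the call (adjusted p = 0.243). Pla1a, a phospholipase that releases lysophosphatidylserine, a relative of LPA, stood at 6.57 ± 2.83 FPKM in the tumours and 51.6 ± 5.23 FPKM in the glands (-2.87, SE 0.29, adjusted p = 4.1e-04). Liph, a membrane-bound phospholipase that cuts phosphatidic acid to LPA, stood at 7.76, 9.46 and 12.3 FPKM in tumours 1, 2 and 3 and at 0.384, 0.838 and 0.841 FPKM in glands 1, 2 and 3. All tumours were many times above all glands (2.68, SE 0.21, adjusted p = 1.5e-04). Liph exceeded Enpp2 in every tumour, and Enpp2 exceeded Liph in every gland. Pld2, a phospholipase D that makes phosphatidic acid, was lower by a smaller amount (-0.45, adjusted p = 0.022), a call lost without any 1 of the 3 glands (adjusted p = 0.0567 to 0.0967). Agk (-0.05) and Pld1 (-0.14) did not pass.

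The enzymes that remove LPA and S1P also split. Of the 3 lipid phosphate phosphatases, which strip the phosphate from both lipids at the cell surface and are listed under their older symbols, Ppap2c (Plpp2) rose and Ppap2a (Plpp1) and Ppap2b (Plpp3) fell. Ppap2c stood at 92.0, 98.0 and 131 FPKM in tumours 1, 2 and 3 and at 42.3, 40.6 and 39.8 FPKM in glands 1, 2 and 3 (1.35, SE 0.15, adjusted p = 5.2e-04). Ppap2b stood at 17.0 ± 5.69 FPKM in the tumours and 66.6 ± 1.64 FPKM in the glands (-1.95, SE 0.21), and Ppap2a at 7.58 ± 2.04 and 19.3 ± 1.38 FPKM (-1.27, SE 0.19). Ppap2b was the most abundant of the 3 in every gland and Ppap2c in every tumour. Acyltransferases turn LPA into phosphatidic acid on the way to membrane and storage lipids. Of 6 such genes 2 were lower and 4 did not pass, beside 23.1% lower among all tested genes. Without tumour 3 the count called was 4. Agpat2, the enzyme of fat cells, stood at 22.4 ± 3.39 FPKM in the tumours and 334 ± 24.2 FPKM in the glands (-3.85, SE 0.13, adjusted p = 1.2e-05), and Agpat3 was lower too (-1.89), while Agpat1 (0.10) and Agpat5 (0.27) did not pass. The adipocyte marker sums given above moved with Agpat2 and Enpp2, and their part was not tested.

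Of 9 tested genes of S1P synthesis and breakdown 2 rose, 1 fell and 6 did not pass. Among all tested genes 21.9% were higher and 23.1% lower. Of the 2 that rose, Sgpp2 reached the filter only through the tumours and could hardly be called other than higher. Sphk1, the sphingosine kinase that growth factors induce, stood at 5.97, 5.13 and 9.09 FPKM in tumours 1, 2 and 3 and at 2.17, 3.14 and 2.88 FPKM in glands 1, 2 and 3. All tumours were above all glands (1.03, SE 0.22, adjusted p = 0.00906). Sgpp2, an S1P phosphatase, stood at 15.4, 16.9 and 2.55 FPKM in tumours 1, 2 and 3 and at 0.329, 0.121 and 0.128 FPKM in glands 1, 2 and 3 (3.09, SE 0.60, adjusted p = 0.00582), with tumour 3 far below the other tumours. Asah2, a ceramidase that releases sphingosine, was lower (-0.78, adjusted p = 0.0144), a call lost without gland 1 (adjusted p = 0.0559), gland 3 (0.0525) or tumour 2 (0.0524) and with quantile-normalized values (0.0727). The acid ceramidase Asah1 (-0.0045 on the log2 scale) and the S1P lyase Sgpl1 (-0.22) did not pass. Of 3 tested export and carrier genes 2 were lower, beside 23.1% of all tested genes, and 1 did not pass. Of the 2, Alb reached the filter only through the glands and could hardly be called other than lower. Spns2, the S1P exporter of endothelium, stood at 60.8 ± 10.7 FPKM in the tumours and 45.0 ± 5.83 FPKM in the glands (0.42, adjusted p = 0.0689) and passed without tumour 1 (adjusted p = 0.0332). The transporter Abcc1 passed at -0.57 (adjusted p = 0.0431) and lost its call in 12 of 16 alternatives. Albumin (Alb), a carrier of S1P in plasma, was listed at 0 in all 3 tumours and at 6.81, 2.78 and 7.36 FPKM in glands 1, 2 and 3.

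**Figure D4:**
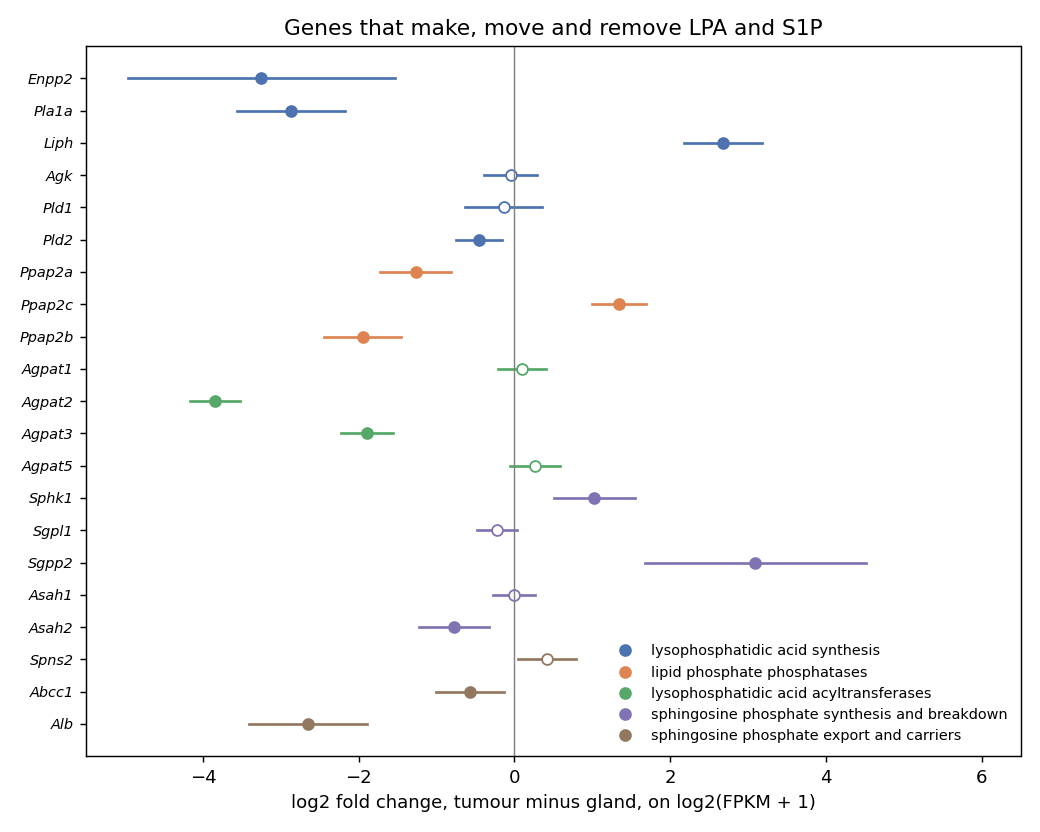
Log2 fold change, tumour minus gland, on log2(FPKM + 1), of the genes named for LPA synthesis, phosphate removal, acylation, S1P turnover and S1P export, with 95% confidence intervals from limma. Filled points passed an adjusted p of 0.05 and open points did not, and Liph, Ppap2c, Sphk1 and Sgpp2 lie to the right while Enpp2, Pla1a and Agpat2 lie farthest to the left.

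Downstream of the receptors, Gnai1, 1 of the 3 inhibitory G protein alpha subunits through which S1pr1 acts, stood at 0.335, 0.640 and 0.0978 FPKM in tumours 1, 2 and 3 and at 24.3, 23.1 and 25.9 FPKM in glands 1, 2 and 3 (-4.25, SE 0.17, adjusted p = 1.8e-05). Gnai3 rose, at 69.4 ± 4.98 FPKM in the tumours and 46.8 ± 1.83 FPKM in the glands (0.56, SE 0.10), and Gnai2, the most abundant of the 3, did not pass (-0.17). Of the G protein alpha subunits through which S1pr2 acts, Gna12 fell (-1.03, SE 0.12) and Gna13 did not pass (0.28, adjusted p = 0.19). Of 9 genes of receptor internalisation and S1pr1 control 5 were lower and 4 did not pass, beside 23.1% lower among all tested genes. The number called was 3 without gland 3, 7 without gland 2, 4 or 5 without any other single library, and 0 without glands 1 and 3. Klf2, a factor that drives S1pr1 in lymphocytes and endothelium, stood at 6.02 ± 3.14 FPKM in the tumours and 38.9 ± 1.65 FPKM in the glands (-2.62, SE 0.34, adjusted p = 0.00107). Arrb1, a beta arrestin (-1.38), Grk5, a receptor kinase (-1.25), and Cd69, which takes S1pr1 off the lymphocyte surface (-1.48), fell too, and Stat3 (0.43) and Adrbk1 (-0.15) did not pass, though Stat3 did without tumour 1 (adjusted p = 0.0232). The call of Cd69 was lost without gland 3 (adjusted p = 0.0539).

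The 4 tested genes of other lysophospholipid and related receptors were called lower, beside 23.1% of all tested genes, and 3 more lay below the filter. Of the 4, Gpr132 and Gpr183 reached the filter only through the glands, and the count called was 2 without gland 3 or tumour 2 and with quantile-normalized values. Gpr132, which responds to lysolipids and acid, stood at 0.665 ± 0.416 FPKM in the tumours and 3.88 ± 0.880 FPKM in the glands (-1.57, SE 0.25, adjusted p = 0.00279). Gpr183 (-1.24), a lymphocyte receptor for oxysterols, P2ry10 (-1.79) and Gpr34 (-0.58), both receptors for lysophosphatidylserine, passed with adjusted p of 0.0112, 0.0221 and 0.0273. The call of P2ry10 was lost without gland 1 (adjusted p = 0.0691), gland 3 (0.0761) or tumour 2 (0.0583) and at a pseudocount of 0.1 (0.0646). Quantile-normalized values ended the call of Gpr183 (adjusted p = 0.071) and of Gpr34 (0.391), and that of Gpr34 was also lost without gland 2 (0.0812), gland 3 (0.0919), tumour 2 (0.085) or tumour 3 (0.0509). Lpar5, the LPA receptor of platelets and sensory cells, lay below the filter, at 0.486, 0.103 and 0.139 FPKM in tumours 1, 2 and 3 and at 1.85, 0.972 and 0.899 FPKM in glands 1, 2 and 3.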

How the data were processed

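Total RNA of frozen tissue was sequenced after genomic DNA removal, per the labels' protocols. HISAT2, StringTie and the build mm10 are named, per the submitters' processing notes, without versions or roles. The deposited table gives 1 value per symbol and library. Its header names no unit, and the deposited values were taken as FPKM because they were not whole, were never negative and summed to different totals. No source used here gives the annotation.

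Tumour minus gland was tested on log2(FPKM + 1) for the 13364 genes whose mean reached 1 FPKM, by limma 3.58.1 (mean-variance trend, R 4.3.3). Tests were 2-sided, p-values were adjusted by Benjamini-Hochberg, and the threshold was 0.05. Fold changes on this scale understate those of low genes, and counting error did not enter. Single values had an exact permutation test over 20 arrangements (SciPy 1.17.1). The fit was also run on simulated data in which far fewer genes changed than were called here. That run does not show how reliable the calls in these libraries are. The members and lists were chosen with earlier results of these data known. The rule for named genes took the 10 receptors, up to 4 members of each pathway list past the threshold with the smallest p, the 2 most abundant members short of it, 2 genes per marker list and 3 like genes per receptor, and the text gives a subset of these for the markers. Pathway and marker sums use every listed member in the table. Of the 15 marker lists, those set beside a receptor or pathway gene are given in the text, and the others mainly in the closing section. Some lists of the closing section fell as well, among them the mast cell list (4 of 5 tested genes lower). Alternatives varied the pseudocount, filter, scaling, trend, block and libraries. Averaging tumours 1 and 2 as 1 sample, and the tests of receptor shares, were added after seeing the data. Some named genes and the counts of 2 pathway lists are not reported here.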

Additional observations from a re-analysis of the deposited data

How the results depend on the processing

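The count of tested receptors past the threshold was 7, and 10 of 10 with no filter. It was 4 of the 4 receptors tested at a mean of at least 5 FPKM and 1 (S1pr1) without glands 1 and 3 together, a fit that left 1 gland, assumed to vary like the other libraries. That fit also called 2052 genes in all in place of 6023, and 9 pathway genes in place of 35. With 1 library left out, the counts were 5 to 7 receptors, 4307 to 6371 genes and 26 to 38 pathway genes. At a mean of at least 5 FPKM, 4328 genes were called in all. The share of tested genes that these make up is not given here. The 4 of 4 receptors therefore cannot be set against a general rate. The replicate numbers did not pair the samples (r = -0.054, -0.118 and -0.124 between deviations of tumour and gland of the same number, and 0 of 3 tumours correlated best with their own number). A fit with the replicate number as a block called 4728 genes and 6 receptors, with S1pr2 at an adjusted p of 0.0869. Without glands 1 and 3 the calls of Lpar1 (-1.74, adjusted p = 0.0819), Lpar2 (1.01, 0.0804), Lpar6 (-0.98, 0.0611) and S1pr3 (-1.33, 0.0758) were lost as well, and these kept their call in the other alternatives in which they were tested. No tested receptor changed direction in any alternative run. S1pr4 relative to Ptprc turned to -0.54 at a pseudocount of 0.1. The share of Lpar6 lay between -0.67 and 3.71 percentage points with 1 library left out, and turned without tumour 3. Among genes that did not pass, the log2 fold change turned for Agk (0.0849 under quantile normalization, and -0.126 to 0.0547 with 1 library left out, positive without tumour 2), Pld1 (0.242 under quantile normalization, 0.0196 without glands 1 and 3, and -0.301 to 0.0429 with 1 left out, positive without tumour 1) and Asah1 (0.0938 without glands 1 and 3, and -0.0683 to 0.0737 with 1 left out, positive without gland 3, tumour 2 or tumour 3). It also turned for Gnai2 (0.00514) and Adrbk1 (0.20) without glands 1 and 3, and for Ctgf (-0.00313 at a common sum, -0.0356 under quantile normalization, -0.0692 with tumours 1 and 2 averaged, and -0.0810 to 0.331 with 1 left out, negative without tumour 1 or tumour 2). The cause of these changes was not tested. Over all tested genes the median shift was 0.008 on the log2 scale, 0.119 under quantile normalization and -0.051 at a common sum. The number of fragments behind values under 1 FPKM is unknown, among them all values of Lpar3, most of S1pr5 and the tumour values of Lpar4. Among the tested receptors such values were S1pr4 in tumours 2 and 3 (0.931 and 0.163 FPKM), S1pr3 in tumour 3 (0.730 FPKM) and Lpar2 in gland 2 (0.731 FPKM).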

Other observations

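Markers of the cell types not set beside a receptor above moved as follows. The lymphatic endothelial list had 3 of 4 tested genes lower and 1 that did not pass, with sums of 1.83 to 7.07 FPKM in the tumours and 13.5 to 22.7 FPKM in the glands. The macrophage list had 3 of 6 lower and 3 that did not pass (271 to 600 FPKM in the tumours, 563 to 630 FPKM in the glands). The mast cell list had 4 of 5 lower and 1 that did not pass (28.0 to 30.7 FPKM in the tumours, 146 to 182 FPKM in the glands). The neutrophil list had 1 of 6 higher, S100a8, and 5 that did not pass (269 to 3202 FPKM in the tumours, 25.4 to 47.1 FPKM in the glands). S100a8 alone made up most of that tumour sum (3100, 1833 and 259 FPKM in tumours 1, 2 and 3). Of the 5 that did not pass, Csf3r (-0.53) and Cxcr2 (-0.50) leaned lower and the others leaned higher. The basal epithelium list had 2 of 6 lower and 4 that did not pass (103 to 272 FPKM in the tumours, 226 to 232 FPKM in the glands). Of the 6 skeletal muscle genes 0 passed in limma and 4 had an unadjusted p under 0.05 (2.09 to 21.4 FPKM in the tumours, 7.68 to 9704 FPKM in the glands). The Schwann cell list summed to 134 to 245 FPKM in the tumours and 101 to 128 FPKM in the glands. Sox10 alone made up most of that tumour sum (121, 152 and 229 FPKM in tumours 1, 2 and 3).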
